A study of Equus caballus with 93 samples.

Results

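Cells of the synovial fluid were compared within the gel-treated joints of 1 arm of an equine osteoarthritis experiment, between the week of the injection and 6 weeks later. Of the 93 libraries of the series, 15 were titled iPAAG at week 2 (8 horses) or week 8 (7 horses). iPAAG is an injectable polyacrylamide hydrogel. Leaving out the libraries with an SD of log2 CPM over all genes below 2, a quantity called library spread here, removed horse 14 at week 2 and horse 3 at week 8. That left 13 libraries, 7 at week 2 and 6 at week 8, and 6 horses with both (horses 5, 6, 7, 8, 12 and 17). Horse 14 had no library at week 8.

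All horses of both arms were 2 to 5 years old and had an osteochondral fragment made surgically in 1 middle carpal joint, so the saline controls carry the same lesion. The operated joint received 2 mL of 2.5% gel (iPAAG, 8 horses) or 2 mL of phosphate buffered saline (Control, 8 horses) at week 2, and the horses were exercised from week 2 on. Whether fluid collection at week 2 preceded or followed the injection is not given in the sources used here. Within the gel arm the time since surgery, exercise and the gel cannot be told apart.

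Synovial fluid bathes the cartilage and the lining of the joint and normally holds few cells, chiefly macrophages and other mononuclear cells with some shed lining cells. After joint injury, leukocytes enter the fluid and the mixture of cells changes, so RNA from the pelleted cells reports on which cells are present as well as on what each of them transcribes. Polyacrylamide hydrogel is a non-degradable filler given into joints against osteoarthritic pain, and it is known to become integrated into the synovial lining with ingrowth of cells and vessels. In these bulk samples, fewer cells of a type and less RNA per cell cannot be told apart. The deposited table names genes by Ensembl identifier only, and 0 of its 15838 identifiers could be paired with a symbol. Genes are therefore described by identifier, level and behaviour, and the labelled cell type could not be checked against marker genes.

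ENSECAG00000023727 had the largest rise. Its level at week 2 was lowest at 2.99, median 3.95 and highest 6.09 log2 CPM (reads relative to the scaled library size, on a log2 scale; 7 libraries). At week 8 it was lowest at 7.27, median 9.78 and highest 11.03 (6 libraries). The lowest week 8 library lay above the highest week 2 library. The mean went from 4.11 ± 1.03 (SD, n = 7) to 9.56 ± 1.30 (SD, n = 6), and the fitted rise was 5.48 ± 0.93 on the log2 scale (SE), or 44.7-fold, with a limma adjusted p of 0.000137. In reads, the median library held 276 at week 2 and 17873 at week 8, so the size of this rise does not rest on the 0.5 reads that voom adds to every count. It rose in 6 of 6 paired horses, by between 2.74 in horse 12 and 7.81 in horse 5.

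ENSECAG00000001174 had the next largest rise. At week 2 the 7 libraries were close together, lowest at 4.33, median 4.68 and highest 4.97 log2 CPM. At week 8 the 6 libraries were lowest at 7.14, median 9.07 and highest 10.34. The groups did not overlap. Its mean rose from 4.64 ± 0.26 (SD, n = 7) to 9.05 ± 1.11 (SD, n = 6), a fitted change of 4.42 ± 0.68 (SE, limma adjusted p = 4.01e-05), or 21.4-fold, in 6 of 6 horses. Horse 12 again had the smallest rise, 2.22, and horse 5 the largest, 5.66. The library of horse 3 at week 8, which was left out for its low spread, had levels of 9.42 for ENSECAG00000023727 and 8.66 for ENSECAG00000001174, within the range of the other horses and above its own week 2 levels of 3.95 and 4.97.

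ENSECAG00000044786 had the largest fall among genes with a mean of at least 1 log2 CPM. Its week 2 level was lowest at 0.82, median 3.59 and highest 5.26 log2 CPM, and its week 8 level was lowest at -5.24, median -0.24 and highest 2.02, so the groups overlapped. It fell in 6 of 6 horses, by between 1.22 and 7.00, with a fitted change of -4.38 ± 1.27 (SE, limma adjusted p = 0.0158). At week 8 the libraries held between 0 and 66 reads, with none in horse 6, so the size of the change depends on the added 0.5 reads. The call was not kept without horse 5, 6 or 17 (changes of -4.24, -3.81 and -3.89, adjusted p = 0.064, 0.0778 and 0.0703).

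ENSECAG00000016161 had the next largest fall. It ranged from 3.99 over a median of 5.03 to 5.92 log2 CPM at week 2 and from -1.50 over 0.91 to 4.73 at week 8. The single overlapping library was that of horse 12, which had 435 reads at week 8, when the median library had 38.5. The fitted change was -4.14 ± 0.82 (SE, limma adjusted p = 0.000701), a 17.6-fold lower level, in 6 of 6 horses. In horse 3, whose week 8 library was left out, ENSECAG00000044786 went from 5.26 to 3.58 and ENSECAG00000016161 from 5.03 to 2.97. All 7 horses with both weeks therefore had the same direction for each of the 4 genes. The 6 paired horses entered the choice of these genes, so this count is a description.

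**Figure D1:**
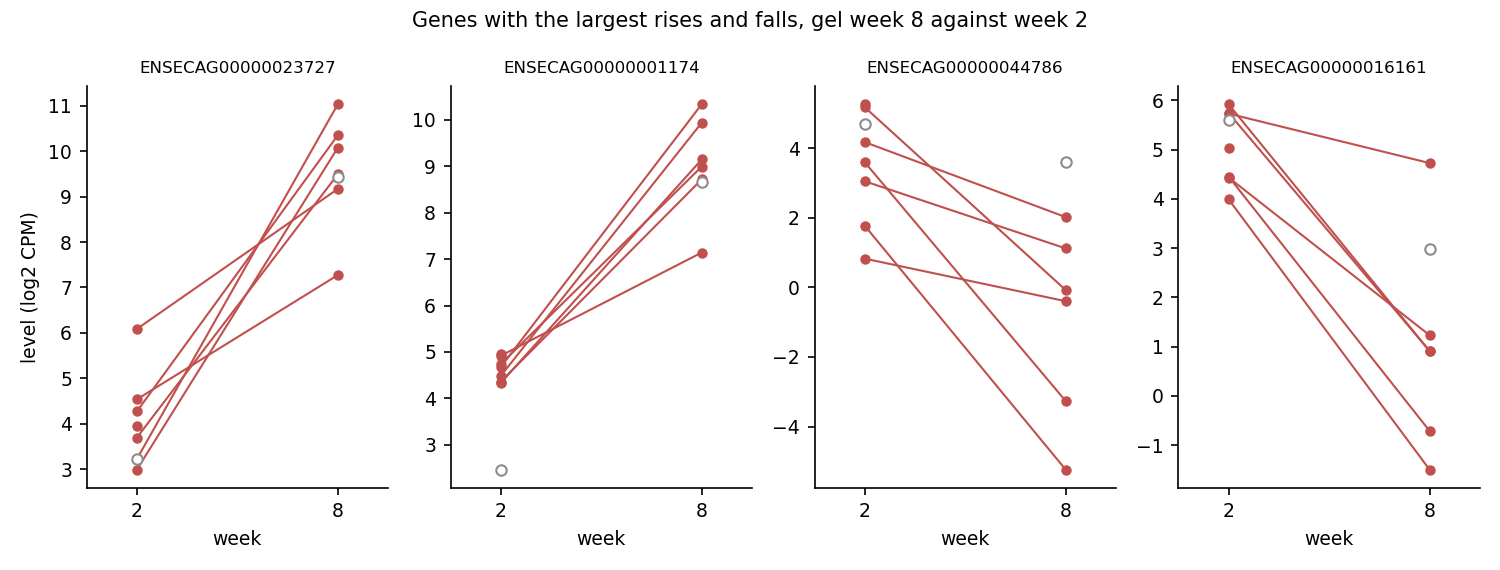
Level in log2 CPM of the 2 genes with the largest rises and the 2 with the largest falls, at weeks 2 and 8 in gel-treated joints. Lines join the libraries of 1 horse, filled points are libraries in the fit, and open points are the libraries of spread below 2; for the left pair of genes every week 8 point lies above every week 2 point, and horse 12 has the lowest filled week 8 point.

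These 4 genes had different histories before and after the interval. ENSECAG00000023727 averaged 2.23 ± 1.14 (SD, n = 7) before surgery in gel horses, 10.59 ± 0.61 (SD, n = 4) at week 6 and 4.04 at week 10, where 2 libraries remained. ENSECAG00000001174 was at 4.35 ± 0.51 (SD, n = 7) before surgery, close to its week 2 mean, and reached 9.76 ± 0.44 (SD, n = 4) at week 6 before a mean of 5.44 (n = 2) at week 10. Its week 2 against week 0 difference of 0.29 ± 0.65 (SE) was not called (limma adjusted p = 0.775). At week 4 the gel means were 7.72 and 8.10 (n = 3), neither called against week 2 (limma adjusted p = 0.139 and 0.0531). In libraries of spread 2 or more, both genes thus had higher means at weeks 4, 6 and 8 than at week 2. Their means were lower in the few week 10 libraries. The difference between weeks 8 and 10 was not tested. In saline horses the means were 8.07 and 7.70 at week 4 (n = 7) and 4.88 and 6.81 at week 10 (n = 6). With all 8 gel libraries of week 10 the means were 4.24 ± 1.10 for ENSECAG00000023727 and 5.17 ± 1.51 for ENSECAG00000001174 (SD, n = 8). Only 2 of these libraries had a spread of at least 2. At week 6, adding the gel libraries of low spread took the means from 10.59 and 9.76 to 8.90 and 8.20 (n = 8). At week 4 it took them from 7.72 and 8.10 to 5.36 ± 2.43 and 5.59 ± 2.60 (SD, n = 7). The week 2 means with all libraries were 4.00 and 4.37 (n = 8). The part of low spread in the week 4, 6 and 10 means was not tested.

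ENSECAG00000016161 had the opposite course. It averaged 0.10 ± 1.72 (SD, n = 7) before surgery, rose by 4.95 ± 0.78 (SE, limma adjusted p = 5.74e-06) to week 2, and at week 8 differed from week 0 by 0.81 ± 0.82 (SE), which was not called (adjusted p = 0.488). The week 8 mean of 0.93 ± 2.15 (SD, n = 6) was thus within the spread of the samples taken before surgery. For ENSECAG00000044786 the week 0 mean was 1.43 ± 2.92 (SD, n = 7), and its difference between week 2 and week 0 of 1.97 ± 1.21 (SE) was not called (adjusted p = 0.229). Its gel means were 2.68 (n = 3) at week 4, 3.34 (n = 4) at week 6 and -0.97 (n = 6) at week 8. In saline horses this gene had no steady course, with means of 6.14, 4.09, -0.38, 3.66 and -1.67 at weeks 2, 4, 6, 8 and 10. The comparisons with week 0 and with week 2 share libraries and are set side by side only.

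**Figure D2:**
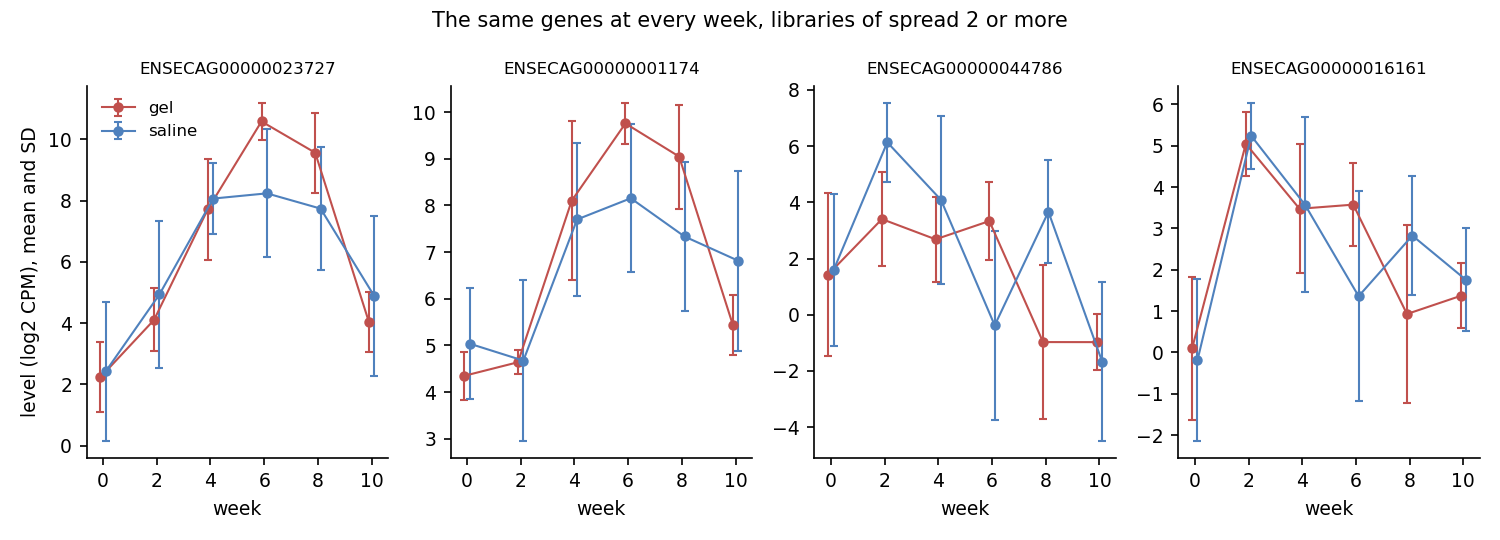
Mean level in log2 CPM with SD of the same 4 genes at each sampling week in gel (red) and saline (blue) horses, libraries of spread 2 or more. Gel horses had 7, 7, 3, 4, 6 and 2 such libraries and saline horses 8, 7, 7, 6, 7 and 6 at weeks 0, 2, 4, 6, 8 and 10; in gel horses the first pair of genes was highest at week 6 and the fourth gene at week 2.

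Across all 15838 genes, 1957 were called (12.4% of the genes tested) at a Benjamini-Hochberg adjusted p below 0.05 in limma. Of these, 753 were higher at week 8 (4.75%) and 1204 lower (7.6%). The called rises had a median of 1.07 on the log2 scale and the called falls a median of -1.01, beside a median of -0.15 over all genes. Of the 753 called rises, 420 were of at least 1 on the log2 scale (2.65% of all genes) and 85 of at least 2. Of the 1204 called falls, 608 were of at least 1 (3.84% of all genes) and 340 of at least 2. Among the called genes, 587 rose and 779 fell in each of the 6 paired horses, beside 1162 and 1560 of all 15838 genes. The same horses entered the calls, so this count is a description. The libraries of the 2 weeks did not overlap for 263 genes that were higher (1.66%) and 353 that were lower (2.23%), of which 210 and 275 were also called.

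The count depended on single horses and on the libraries included. It was 775 without horse 5 and 969 without horse 6. With all 15 libraries, those of low spread included, 536 genes were called (3.38%), 283 higher and 253 lower, and 534 of these 536 were among the 1957 with the same sign. All 1957 genes kept their sign in each of the 8 fits that left out 1 gel horse, and 574 of them, 256 higher and 318 lower, were called in every one of those fits. Quantile normalisation moved the median change of all genes from -0.15 to -0.03. The share of called genes that were higher went from 38.5% to 52.8% (1052 higher and 939 lower), so the excess of falls over rises was absent there. It was also absent with all libraries and without libraries of spread below 3 (816 higher and 787 lower, 50.9%). With spread as a covariate in the kept libraries 49.6% of called genes were higher. With all libraries the share was 36.7% with that covariate and 32.3% with limma array weights. The excess of falls remained when the libraries were only shifted to the same median level, with 762 rises, 1085 falls and a median change of -0.15. A shift of whole libraries thus did not remove the excess, and the reason for the differences between these settings was not tested.

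The rises and falls differed in the levels of the genes they touched. Among the 4155 genes with a mean below 1 log2 CPM, 15 were called higher (0.361%) and 267 lower (6.43%), and the median change of this class was -1.06. In the other classes both directions were represented. Of the 4008 genes from 1 to 4 log2 CPM, 216 were called higher and 266 lower; of the 4001 genes from 4 to 6, 279 and 353; and of the 3674 genes at 6 or more, 243 and 318. In the highest class the called rises had a median of 0.85 and the called falls a median of -0.62. Precision improved with level, from a median SE of 0.92 in the lowest class to 0.16 in the highest.

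**Figure D3:**
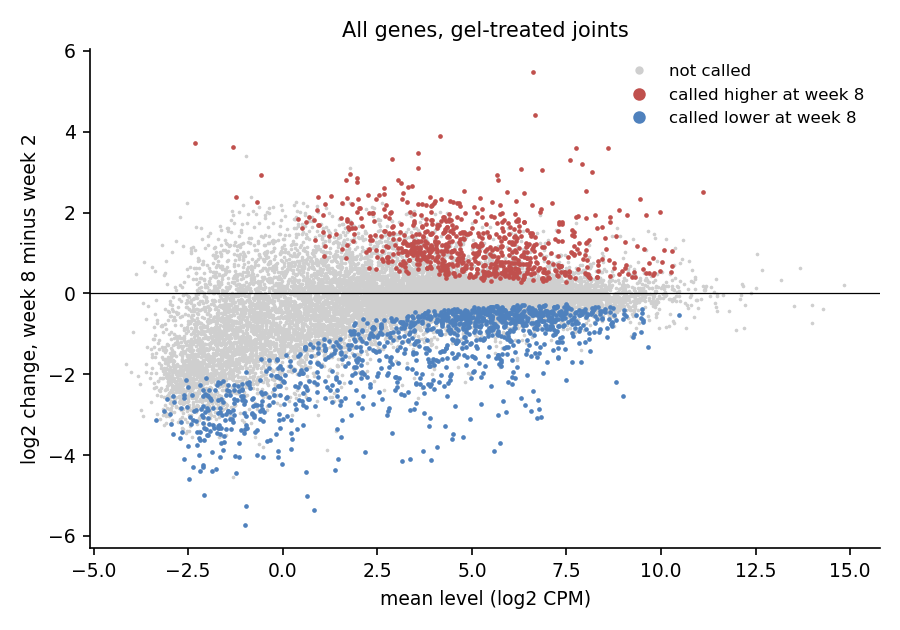
Log2 change from week 2 to week 8 in gel-treated joints against mean level in log2 CPM, 1 point per gene. Red points are the 753 genes called higher, blue points the 1204 called lower; below a mean of 1 log2 CPM the called genes are nearly all lower, and above it both directions occur.

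The libraries of the 6 paired horses were of similar depth, with 20938954 to 26691988 reads in genes at week 2 and 20165441 to 34175789 at week 8. Their spread differed more. It averaged 3.22 ± 0.67 at week 2 and 3.58 ± 0.32 at week 8 (SD, n = 6), a difference that did not pass a two-sided exact sign-flip permutation test (p = 0.344, adjusted p = 0.573 over 5 library measures, higher in 4 of 6 horses). Spread also set which libraries were kept, so this test covers only libraries above that cut. With all 7 pairs the difference was 0.11 (exact permutation p = 0.75, higher in 4 of 7 horses). Horse 12 went from 2.39 to 3.87 and horse 17 from 2.49 to 3.81, while horse 7 went from 3.97 to 3.12 and horse 8 from 3.67 to 3.25. The number of genes without a read moved in the direction of spread in 5 of 6 horses, from 9 to 1170 in horse 12 and from 1086 to 106 in horse 7. In horse 5 it fell from 822 to 744 while its spread was 0.11 higher at week 8. The share of reads in the 100 most abundant genes was 27.0% ± 1.37 at week 2 and 27.9% ± 1.52 at week 8 (SD, n = 6, exact permutation p = 0.344). With 6 pairs the smallest p this test can give is 0.0313.

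**Figure D4:**
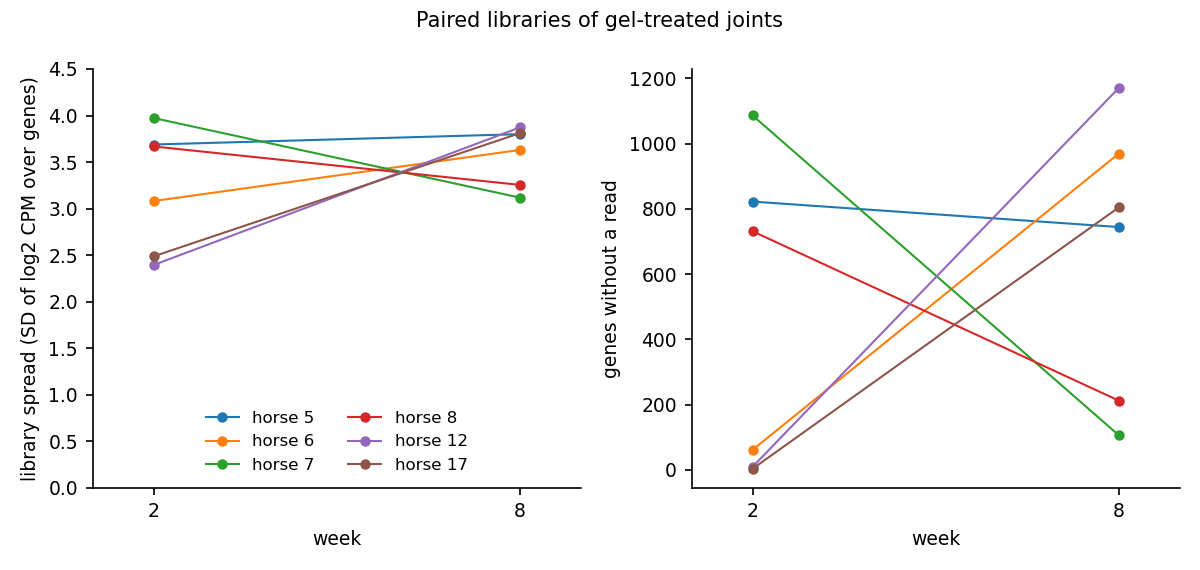
Library spread (left, SD of log2 CPM over genes) and number of genes without a read (right) at weeks 2 and 8 in the 6 gel horses with both libraries. Lines join the libraries of 1 horse; horses 12 and 17 rise in both panels and horses 7 and 8 fall.

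The gene changes moved in part with library spread. The slope of each gene on spread was taken from all Control libraries, those of low spread included, and from no gel library. Over the 15838 genes, which are not independent, the change from week 2 to week 8 correlated with this slope at Pearson's r = 0.50. Spearman's rho was 0.35. With the slope from Control libraries of spread 2 or more, r was 0.47 and rho 0.26. With spread as a covariate 2179 genes were called, 1081 higher and 1098 lower. Of the genes called without that term, 721 of the 753 rises and 913 of the 1204 falls were called again, and 0 changed sign. With this term the class below 1 log2 CPM had 115 rises and 106 falls in place of 15 and 267, and the class from 1 to 4 had 372 and 188 in place of 216 and 266. The 4 genes above kept their calls with this term.

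The horses differed from each other in their changes across the whole transcriptome. The 15 pairwise correlations of the horses' own changes over all genes ranged from -0.51 (horses 7 and 12) to 0.78 (horses 12 and 17). The 7 pairs of horses whose spread moved in the same direction had r from 0.13 to 0.78, and the 8 pairs whose spread moved in opposite directions from -0.51 to 0.25. Horses 7 and 8, whose spread fell, had an r of 0.51, and each of them had a negative r with horses 6, 12 and 17. The part of spread in these correlations was not tested.

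The called genes nevertheless extended to horses that had no part in calling them. When horse 5 was left out, 98.6% of the 290 rises called in the other libraries were rises in horse 5, where 44.7% of all genes rose, and 95.1% of the 485 falls were falls, where 55.3% of all genes fell. For horse 6 the shares were 98.6% of 438 rises and 96.2% of 531 falls, beside 35.1% and 64.9% of all genes. Horse 17 followed 92.8% of 586 rises and 83.4% of 765 falls, beside 40.3% and 59.7%. Horse 8 followed 94.6% of 609 rises and 80.2% of 1129 falls, beside 53.7% and 46.3%. In the remaining horses 1 direction was followed less closely. Horse 7 followed 94.5% of 587 rises but 57.8% of 1444 falls, beside 58.4% and 41.6% of all genes, and horse 12 followed 69.5% of 837 rises and 81.4% of 1087 falls, beside 36.0% and 64.0%. In each of the 6 horses both shares exceeded that of all genes. In horse 3, whose week 8 library has low spread, 60.9% of 655 rises and 64.5% of 896 falls were followed, beside 51.9% and 48.1% of all genes.

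Levels of genes with a mean of at least 1 log2 CPM varied more between horses at week 8 than at week 2. Over the 11683 genes with a mean of at least 1 log2 CPM in the gel libraries of weeks 2 and 8, the median SD between the same 6 horses was 0.26 at week 2 and 0.33 at week 8, and 63.3% of these genes had the larger SD at week 8. The mean correlation between horses was 0.948 at week 2 and 0.939 at week 8. These values are descriptions without a test, and genes of lower level were not included.

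A further question was what became of the genes that changed after surgery. To avoid choosing them in the gel libraries, they were taken from the saline arm, where 1996 genes were called higher (12.6%) and 1220 lower (7.7%) at week 2 against week 0. In gel horses the 1996 genes had a median of 0.68 on the log2 scale at week 2 against week 0, and of -0.35 from week 2 to week 8, with a fall in 84.3% of them beside 63.0% of all genes. Of these, 474 were called lower (23.7%, beside 7.6% of all genes) and 30 higher. The median of their changes was below 0 in 6 of 6 horses, from -0.52 in horse 6 to -0.11 in horse 12, while the median of all genes was below 0 in 4 of 6. With all libraries the same 1996 genes had a median of -0.40, and the 610 genes called higher in that fit of the saline arm had -0.85.

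The genes that were lower after surgery moved the other way. In gel horses the 1220 genes had a median of -0.90 at week 2 against week 0 and of 0.47 from week 2 to week 8, with a rise in 80.6% beside 37.0% of all genes. In this list 327 were called higher (26.8%, beside 4.75% of all genes) and 7 lower. The median was above 0 in 6 of 6 horses, from 0.02 in horse 12 to 0.89 in horse 7. At week 8 both lists still stood apart from week 0 in gel horses, with medians of 0.31 for the genes higher after surgery and -0.41 for those lower, beside -0.16 over all genes.

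**Figure D5:**
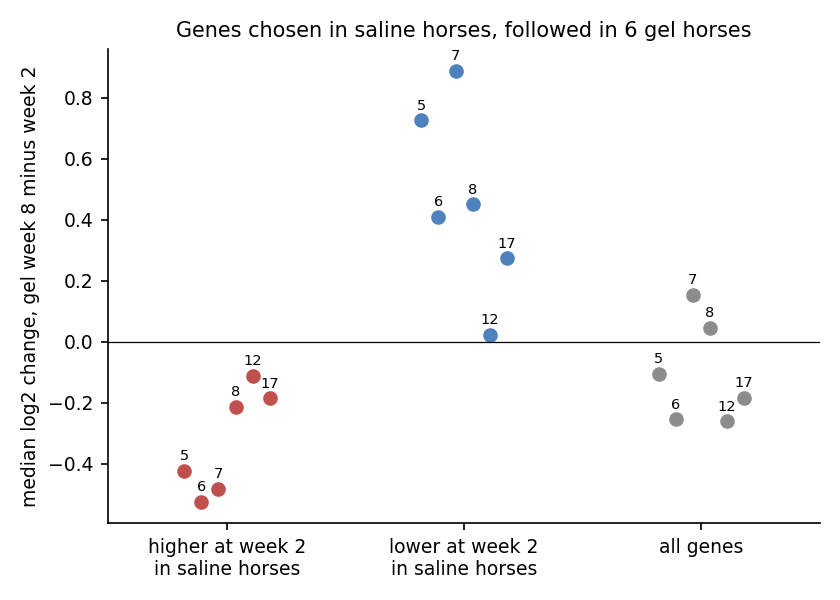
Median log2 change from week 2 to week 8 in each of the 6 paired gel horses (labelled by horse number) for the 1996 genes called higher and the 1220 called lower at week 2 in saline horses, and for all genes. The first list lies below 0 and the second above 0 in every one of the 6 horses, with horse 12 closest to 0 in both.

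The saline horses also divided these genes by how long they stayed changed. Among the genes higher at week 2, 1576 were no longer called against week 0 at week 8 in saline horses. In gel horses these had a median of -0.38 from week 2 to week 8, with 429 called lower (27.2%, beside 7.6% of all genes) and 2 higher. The median of all genes was -0.15. The 419 genes still called higher at week 8 in saline horses had a median of -0.11 in gel horses, with 45 called lower (10.7%, beside 7.6% of all genes) and 28 higher (6.68%, beside 4.75%), and were at 0.71 against week 0. That median and these shares lay near those of all genes. Among the genes lower at week 2, 1041 were not called at week 8 in saline horses, and in gel horses these had a median of 0.59 with 321 called higher (30.8%, beside 4.75% of all genes) and 2 lower. The 177 that stayed lower had a median of -0.08 in gel horses, with 4 called higher (2.26%) and 5 lower (2.82%), shares below those of all genes, and were at -0.88 against week 0. Another 3 genes were called in opposite directions at weeks 2 and 8 in saline horses.

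Genes that were called late in saline horses were followed in the same way. The 449 genes called higher at week 8 but not at week 2 in saline horses had a median of 0.22 between weeks 2 and 8 in gel horses, with 80 called higher (17.8%, beside 4.75% of all genes) and 2 lower. The 593 genes called lower only at week 8 had a median of -0.35, beside -0.15 over all genes, with 112 called lower (18.9%, beside 7.6%) and 0 higher. The median of the first list was above 0 and that of the second below 0 in 6 of 6 gel horses. Not being called at a week does not show that a gene was unchanged there.

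The same interval was tested in saline horses, with 7 libraries at each week and 6 horses with both. There 2363 genes were called (14.9%), 1084 higher (6.84%) and 1279 lower (8.08%). The count was 959 without horse 15, 1437 without horse 13 and 338 (2.13%) with all libraries. The week 8 libraries of this arm held 6076026 to 25994167 reads, and in 1 of them, horse 11, 57.1% of reads fell in 10 genes. No library is shared by the arms, though they share a variance estimate per gene. Of the 753 genes higher in gel horses, 427 were also called higher in saline horses, which is 56.7% of the gel list and 39.4% of the saline list. Of the 1204 lower genes, 487 were called lower in saline horses, 40.4% of the gel and 38.1% of the saline list. In saline horses, 98.0% of the genes called higher in gel horses were higher, beside 50.8% of all genes, and 92.2% of those called lower were lower, beside 49.2%. Their medians there were 0.75 and -0.57. Gene by gene, the change in gel horses correlated with that in saline horses at Pearson's r = 0.24 and Spearman's rho = 0.38, a description over 15838 genes that are not independent.

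The difference between the arms in the change from week 2 to week 8 was then tested directly. Limma called 0 of 15838 genes (0%), with 1377 at an unadjusted p below 0.05 (8.69%) and a smallest adjusted p of 0.347. With all libraries 116 genes (0.732%) had an unadjusted p below 0.05, fewer than 5% of the genes, and 0 were called. With voom weights 0 genes and with quantile normalisation 1 gene was called. The median SE of this difference was 0.40 on the log2 scale, beside 0.29 for the change in gel horses alone. For the 4 genes above the saline change had the same direction as the gel change. ENSECAG00000023727 changed by 2.71 ± 0.89 (SE, limma adjusted p = 0.0309) in saline horses, and the gel change exceeded that by 2.77 ± 1.29 (SE, adjusted p = 0.54). The saline week 2 libraries of this gene included horse 1 at 9.79 log2 CPM, far above the group median of 3.97. ENSECAG00000001174 changed by 2.56 ± 0.65 (SE, adjusted p = 0.00575), with a difference of 1.86 ± 0.94 (SE, adjusted p = 0.579).

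Both falling genes were also lower at week 8 than at week 2 in saline horses. ENSECAG00000016161 changed by -2.42 ± 0.79 in saline horses (SE, limma adjusted p = 0.0287), and the gel change was lower by a difference of -1.72 ± 1.13 (SE, adjusted p = 0.712). ENSECAG00000044786 had a value of -2.49 ± 1.22 in saline horses (SE, limma adjusted p = 0.16), and the difference was -1.89 ± 1.76 (SE, adjusted p = 0.82). At week 8 its mean was -0.97 ± 2.75 (SD, n = 6) in gel and 3.66 ± 1.83 (SD, n = 7) in saline horses, after week 2 means of 3.40 ± 1.67 and 6.14 ± 1.40 (SD, n = 7 each). The 4 genes were chosen as the largest called changes in gel horses, which favours a larger change there than in saline horses. The size of that effect of the choice was not tested, and none of the 4 differences passed the test. With all libraries the saline changes of ENSECAG00000023727 (2.99, limma adjusted p = 0.0525) and ENSECAG00000016161 (-2.15, adjusted p = 0.0922) were not called.

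The distance of each horse from its own sample taken before surgery did not show a common direction. Measured as 1 minus Pearson r over 11869 genes with a mean of at least 1 log2 CPM in the gel libraries of weeks 0, 2 and 8, it averaged 0.114 ± 0.041 at week 2 and 0.107 ± 0.052 at week 8 (SD, n = 6, two-sided exact permutation p = 0.781). In horse 7 it fell from 0.143 to 0.058 and in horse 8 from 0.082 to 0.062, the horses whose spread fell. In the other 4 it was larger at week 8, as in horse 5, with 0.111 and 0.148. Over all 15838 genes, low ones included, the distance averaged 0.120 at week 2 and 0.081 at week 8 and was smaller at week 8 in 5 of 6 horses, which also did not pass (exact permutation p = 0.0625).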

How the data were processed

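RNA of synovial fluid cells was sequenced after stranded low-input total RNA library preparation, per the labels' protocols. The authors deposited log2 values, named in the file as voom normalised log2 CPM. The submitters' processing notes name STAR 2.7.10b, limma 3.62.2 and EquCab3.0; for read counting, strand use and the low-gene filter the sources used here give nothing, so genes with overlapping or near-identical copies are uncertain. Taking each library's smallest value as 0.5 reads, 100.0% of values were whole reads within 0.05. The recovered reads ranged from 1737741 to 39916655 per library. They are PCR-amplified reads.

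Limma 3.58.1 (R 4.3.3) was fitted to the log2 values of the 70 libraries with spread of at least 2, with 12 arm-by-week means, horse as random block (correlation 0.09), a mean-variance trend and Benjamini-Hochberg adjustment over 15838 genes. Libraries are paired because they come from the same animal; deviations from group means had a mean r of -0.16 in the 6 same-horse pairs and 0.03 between horses. No libraries of a group were identical (smallest chi-square per degree of freedom 50.9). Named genes are the 2 largest called rises and falls with a mean of at least 1 log2 CPM and the fitted sign in 75% of pairs; the fixed gene lists could not be matched to identifiers, so 0 were used. The fit was tested on simulated reads drawn from a common mean profile. These did not carry the differences in library spread seen in the data, so the test does not cover them. The comparison and its lists were chosen with earlier results of these data known, and the classes of saline genes after the data were seen. The other values came from Python 3.11.15 (pandas 2.3.3, scipy 1.17.1, numpy 2.4.6) and the plots from matplotlib 3.10.9.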

Additional observations from a re-analysis of the deposited data

Results flagged for a closer look

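In the saline group at week 2, horse 1 had a level of 9.79 log2 CPM for ENSECAG00000023727, far from the other 6 libraries, while the median of the whole group of 7 was 3.97. Its gap to the nearest library was 0.60 of the range of the group. Of 26 groups of values checked in this way 1 was flagged, and chance flags about 1 in 20.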

How the results depend on the processing

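The rises of ENSECAG00000023727 (5.05 to 6.04) and ENSECAG00000001174 (4.17 to 4.85) and the fall of ENSECAG00000016161 (-4.78 to -3.77) kept their direction and their call in each of 22 alternatives. The fall of ENSECAG00000044786 kept its direction and lost its call in 5, with values of -3.76 without libraries of spread below 3 (adjusted p = 0.0953), -4.39 with voom weights (adjusted p = 0.216) and -4.24, -3.81 and -3.89 without horse 5, 6 or 17; with any 1 gel horse left out its change ranged from -4.94 to -3.81. With spread as a covariate, added after the data were seen, the 4 changes were 5.70, 4.48, -3.63 and -4.06 (limma adjusted p = 0.000101, 4.07e-05, 0.0423 and 0.00105). The gel count of 1957 went to 536 with all libraries and 4095 with array weights, and ranged from 775 to 2048 with 1 horse left out. The saline count of 2363 went to 338 with all libraries, 863 without spread below 3, and 959 to 2916 with 1 horse left out. Without the replicate block the counts were 1482 and 1877, and with a fixed horse effect 2034 and 2411, and neither fit changed the call of any of the 4 genes. The difference between the arms stayed at 0 genes by limma, except for 1 gene with quantile normalisation. Genes higher after surgery in saline horses had a median gel change of -0.85 with all libraries and -0.59 with all libraries and spread as a covariate, where the saline calls gave lists of 610 and 1479 genes in place of 1996. The same 1996 genes had -0.40 with all libraries, a value added after the data were seen. The median was -0.39 to -0.32 with 1 horse left out; for the genes lower after surgery that range was 0.37 to 0.62. Library measures did not pass their exact tests under any setting. With all libraries the change in log2 reads was -0.17, that in the share of the top 100 genes -0.31 percentage points, and that in the distance to week 0 was 0.0139. With 1 horse left out the change in the share of the top 10 genes ranged from -0.33 to 0.30 and that in distance from -0.0157 to 0.0086. With 5 pairs no p below 0.05 is possible. The cause of these changes was not tested.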
